A study of Mus musculus with 48 samples.

Results

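A set of 9 genes that p53 is known to switch on, or that act in growth arrest after DNA damage or other stress, were followed in mouse liver after 6 days of dichloroacetic acid (DCA), a by-product of water disinfection, in the drinking water. The 9 genes were taken by symbol, as a list of known p53 targets and growth arrest genes, and they are 9 of the 11353 genes listed in either deposited TempO-Seq table. They were Cdkn1a, Ccng1, Gadd45a, Gadd45b, Gadd45g, Bax, Phlda3, Trp53inp1 and Mdm2. All 9 were among the 11275 genes of the frozen (FROZ) livers, and 7 of them, all but Gadd45b and Phlda3, were among the 6673 genes of the formalin-fixed paraffin-embedded (FFPE) livers. The animals were 24 male B6C3F1 mice, a hybrid strain, 4 weeks old, in groups of 6 that drank water with 0, 1.0, 2.0 or 3.5 g/L DCA, which corresponded to 0, 198, 313 or 427 mg/kg-d. Each mouse gave 1 FROZ and 1 FFPE library from partly different liver lobes. The study's methods state that the tissue had been stored for decades. FROZ libraries were made from isolated RNA, which had a low RNA integrity number, and FFPE libraries from lysed sections. No transgene or deletion was stated for any animal. TempO-Seq counts ligated pairs of probes, each pair directed at 1 transcript, so levels were compared between groups for a gene and not between genes.

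The transcription factor p53 is held at a low level by the ubiquitin ligase Mdm2, which is itself a p53 target, and is released by DNA damage and other stress. Its targets stop the cell cycle, of which the CDK inhibitor p21 (Cdkn1a) is the best known, start apoptosis through genes such as Bax, and help repair. The GADD45 proteins are stress sensors that bind PCNA, p21, Cdk1 and the kinase Map3k4, and several of them are also induced without p53. In liver, p53 targets are read as signs of genotoxic stress, while Gadd45b is also known as an early gene of regenerating hepatocytes.

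The deposited values were log2(CPM + 1), where CPM is reads scaled to a common library total, and every level below is on that scale. FROZ libraries held 6.69 to 9.84 M reads on listed genes, and FFPE libraries held 1.83 to 6.01 M. By dose the FFPE range was 4.53 to 5.82 M in controls and 1.83 to 5.59 M at 198 mg/kg-d. It was 3.09 to 4.80 M at 313 mg/kg-d and 4.23 to 6.01 M at 427 mg/kg-d. Of 6 hepatocyte markers 5 were listed, at a summed 19110 to 36457 CPM in FROZ, and none of the 5 passed the test at any dose there. In FFPE 1 of 4 listed hepatocyte markers fell at 427 mg/kg-d, where 2.41% of all FFPE genes were called in either direction. Their sum there was 25760 to 31127 CPM against 37675 to 51553 CPM in controls. The study's methods state that overly abundant transcripts were attenuated alike in every sample. Whether these markers were among them was not checked, so the sums are not read as a share of liver RNA. Some markers of other cells were called against controls in FROZ. Of 6 listed Kupffer cell markers 3 fell at 427 mg/kg-d, as did 7.33% of all genes, and their sum there was 64.0 to 82.8 CPM against 76.3 to 115 CPM in controls. Of 4 erythroid markers 2 fell at 313 and at 427 mg/kg-d, and 1 of 6 endothelial markers fell at each of these doses. Of all genes 6.15% and 7.33% fell there. At 313 mg/kg-d 1 of 5 stellate cell markers and 1 of 2 neutrophil markers rose, beside 20.5% of all genes, and none of either rose at 427 mg/kg-d. Of 3 cholangiocyte and 3 lymphocyte markers none passed the test. The part of these cells in the results below was not tested, and in bulk liver fewer cells of a type cannot be told apart from less RNA per cell.

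The promoters of the genes were searched for the p53 response element, to which p53 binds. The element was taken as 2 abutting half-sites (each 3 purines, C, 2 bases that are A or T, G and 3 pyrimidines) with at most 1 of 20 positions off, which reads the same on both strands. This definition was set after the sequences had been seen. RefSeq promoters (GRCm38.p6) were given for 8 of the 9 genes, with 2 start sites for Cdkn1a, and none for Trp53inp1. In the 250 bases before the start, 25 of 32851 promoters (0.0761%) held the element, and among them were those of Ccng1 and Cdkn1a. A single exact half-site was held by 7.13% of all promoters and by 5 of the 9 promoters of these genes, the other 3 genes being Gadd45a (GGGCTAGCCC), Bax (AGGCAAGCTT) and Mdm2 (GAACTTGCCT). Both Gadd45b and Gadd45g held TATAAA, which 12.4% of all promoters held on either strand, and CACGTG, which 6.02% held. Bax also held CACGTG. The window of the downstream Cdkn1a start held no p53 element. Bases farther upstream or past the start were not searched, so an element there would be missed. A match describes the letters only, and no binding was measured.

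The windows of Ccng1 and Cdkn1a are shown because they hold the p53 element, and that of Gadd45b because it had the largest called rise between neighbouring doses in FROZ liver. They end before the first base of the GENCODE gene model. Capitals mark the p53 element in Ccng1 (chr11:40755312-40755536, minus strand) and in the upstream start of Cdkn1a (chr17:29090729-29090975, plus strand), and mark CACGTG and TATAAA in Gadd45b (chr10:80929841-80930072, plus strand).
Ccng1: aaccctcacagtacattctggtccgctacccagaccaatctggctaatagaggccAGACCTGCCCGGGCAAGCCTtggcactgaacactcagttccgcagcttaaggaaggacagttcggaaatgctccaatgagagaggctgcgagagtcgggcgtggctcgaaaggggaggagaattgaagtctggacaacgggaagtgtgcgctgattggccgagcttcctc
Cdkn1a: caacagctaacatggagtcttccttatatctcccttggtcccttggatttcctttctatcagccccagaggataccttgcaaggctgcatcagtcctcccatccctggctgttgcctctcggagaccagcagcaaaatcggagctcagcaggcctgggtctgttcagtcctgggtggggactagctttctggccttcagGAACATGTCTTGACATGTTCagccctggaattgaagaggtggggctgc
Gadd45b: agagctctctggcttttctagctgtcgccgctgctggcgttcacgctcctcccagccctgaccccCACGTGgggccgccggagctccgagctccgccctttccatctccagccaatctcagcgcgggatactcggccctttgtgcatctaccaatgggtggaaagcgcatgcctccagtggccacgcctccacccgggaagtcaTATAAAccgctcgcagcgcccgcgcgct
The Ccng1 element, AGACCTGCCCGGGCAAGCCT, began 195 bases before the RefSeq start, and that of Cdkn1a, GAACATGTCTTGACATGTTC, began 51 bases before it. Of the 25 genes with an element, 5 were listed in FROZ livers, namely Bank1, Ccng1, Cdkn1a, Mthfd1 and Rps27l. Ccng1 and Rps27l rose at 313 and at 427 mg/kg-d (limma FDR under 0.05), beside 20.5% and 22.7% of all genes. The other 3, Cdkn1a among them, did not pass the test at either dose. The median log2 fold change of the 5 was -0.096 and -0.12 at these doses, where all genes had 0.11 and 0.10. Rps27l, a p53 target that encodes a ribosomal protein S27-like protein, rose by 0.46 log2 already at 198 mg/kg-d (limma FDR 0.00794) and by 0.93 log2 at 427 mg/kg-d (limma FDR 6.03e-09), and its reads were not checked against the related gene Rps27.

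The first question was whether DCA changed these genes in FROZ liver, by limma with Benjamini-Hochberg adjustment over all 11275 genes. At 427 mg/kg-d, Gadd45a, Gadd45b, Bax and Ccng1 rose, Trp53inp1 fell, and Cdkn1a, Gadd45g, Phlda3 and Mdm2 did not pass the test. That was 5 of 9 genes called at FDR under 0.05, beside 30.1% of all genes tested, of which 4 rose and 1 fell, beside 22.7% and 7.33% of all genes. At 313 mg/kg-d the same test called 4 of 9, beside 26.7% of all genes, where Ccng1, Gadd45a and Bax rose and Trp53inp1 fell, beside 20.5% and 6.15% of all genes in these directions. At 198 mg/kg-d it called 0 of 9, beside 1.56% of all genes, while 4 of 9 had an unadjusted limma p under 0.05, beside 17.1% of all genes. Of these 4, Gadd45a and Bax were higher than in controls and Cdkn1a and Gadd45b were lower. At the 3 doses the 9 genes had a median log2 fold change of 0.09, 0.24 and 0.32, where all listed genes together had 0.07, 0.11 and 0.10. Of the 9, 2 genes, Gadd45a and Gadd45b, changed by more than 2-fold at 427 mg/kg-d with FDR under 0.05, beside 3.5% of all genes.

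The scale of the libraries moved these counts for all genes. With libraries scaled to a common median ratio, the middle gene of the table moved by -0.01 log2 at both upper doses. The share of calls over all genes that were increases went from 77.0% to 48.6% at 313 mg/kg-d and from 75.6% to 47.6% at 427 mg/kg-d, and at 198 mg/kg-d, with few calls, from 71.6% to 25.0%. Under that scaling Gadd45a, Bax and Trp53inp1 kept their call and direction at both doses and Gadd45b at 427 mg/kg-d. Ccng1 kept its call at 313 mg/kg-d and lost it at 427 mg/kg-d, where its log2 fold change went from 0.42 to 0.26 (limma FDR 0.127).

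**Figure D1:**
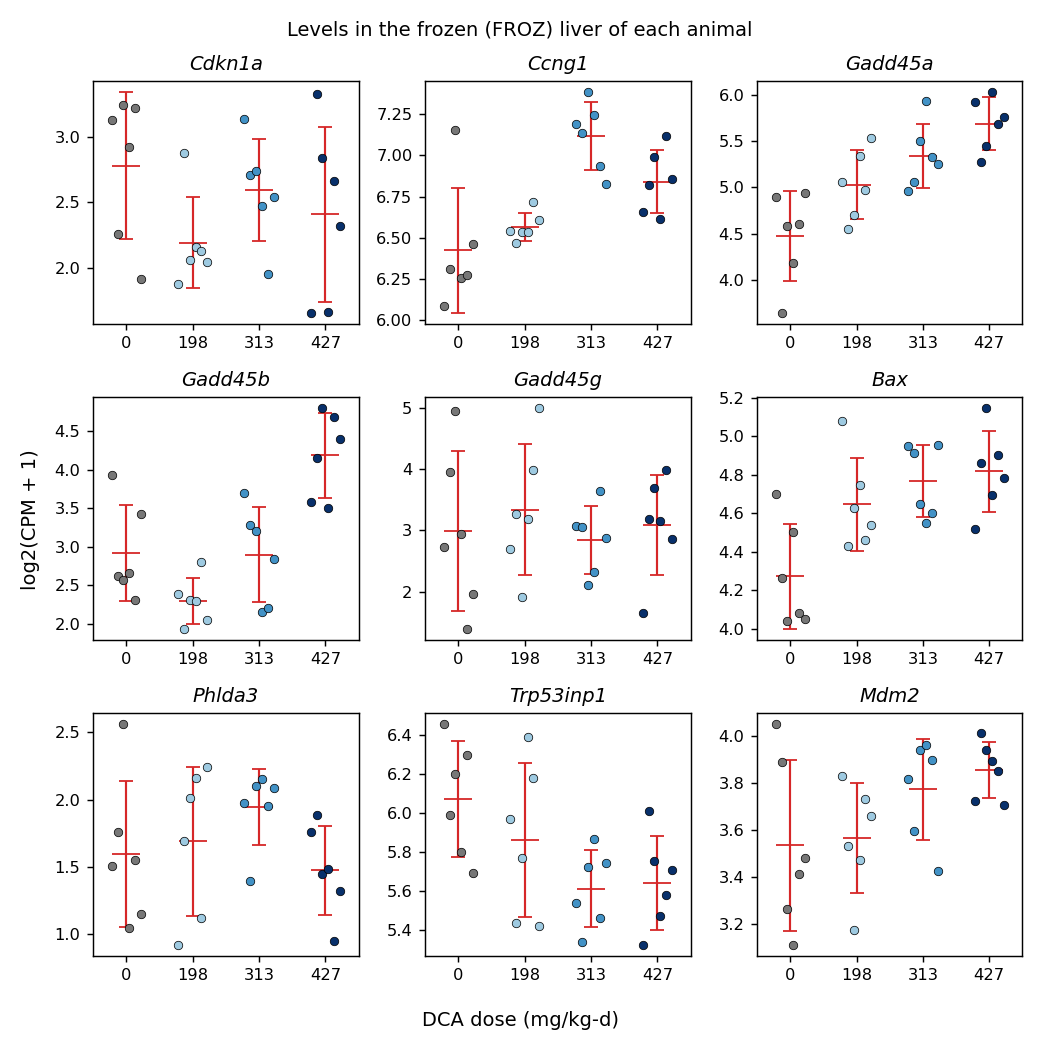
Levels of the 9 genes as log2(CPM + 1) in each FROZ library (points) against DCA dose in mg/kg-d, with the mean and SD of the 6 animals of a dose in red. All 6 animals at 427 mg/kg-d lie above all controls for Gadd45a, 4 of 6 animals lie above all controls for Gadd45b at that dose, and the Gadd45g groups overlap throughout.

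Gadd45a, the GADD45 gene whose induction by DNA damage runs partly through p53, rose with dose. It spans chr6:67035096-67037457 on the minus strand (GRCm38) and overlaps the antisense gene E230016M11Rik. Its level was 3.65 to 4.94 (median 4.59) in controls, 4.56 to 5.54 (5.01) at 198 mg/kg-d, 4.96 to 5.93 (5.29) at 313 mg/kg-d and 5.27 to 6.03 (5.72) at 427 mg/kg-d, with n = 6 in each. All animals at 313 and at 427 mg/kg-d were above all controls, and 4 of 6 at 198 mg/kg-d were. It was the only 1 of the 9 genes whose groups did not overlap at these 2 doses, beside 11.5% and 14.7% of all genes. Gadd45a rose by 0.86 log2 (SE 0.20, limma FDR 0.00189) at 313 mg/kg-d and by 1.21 log2 (SE 0.20, limma FDR 3.18e-05) at 427 mg/kg-d, a 2.31-fold rise. At 198 mg/kg-d it was 0.55 (limma FDR 0.142). The 427 mg/kg-d value stayed between 1.04 and 1.30 when any 1 animal was left out.

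Gadd45b, the family member induced by NF-kB, TGF-beta and mitogenic signals, did not follow the dose in steps. It lies at chr10:80930073-80932204 on the plus strand. Its level was 2.31 to 3.93 (median 2.64) in controls, 1.93 to 2.80 (2.30) at 198 mg/kg-d, 2.15 to 3.70 (3.02) at 313 mg/kg-d and 3.50 to 4.80 (4.27) at 427 mg/kg-d. The 198 and 313 mg/kg-d groups lay within or below the control range, and 4 of 6 animals at 427 mg/kg-d were above every control. Against controls, Gadd45b was at -0.62 log2 (limma FDR 0.251), -0.02 (limma FDR 0.963) and 1.27 (SE 0.28, limma FDR 0.00101) at the 3 doses, the last a 2.40-fold rise. From 313 to 427 mg/kg-d Gadd45b rose by 1.29 log2 (SE 0.28, limma FDR 0.0105), the only 1 of the 9 genes called in that step, beside 3.07% of all genes. The exact rank sum test did not call that step (adjusted p 0.162), but it called 0 of all 11275 genes there and so cannot tell genes apart. The upper animals at 313 and the lower animals at 427 mg/kg-d overlapped.

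Gadd45g, the third member, did not pass the test at any dose and had the widest spread between animals. It lies at chr13:51846678-51848468 on the plus strand. Its level was 1.39 to 4.96 (median 2.83) in controls, 1.91 to 5.00 (3.23) at 198 mg/kg-d, 2.10 to 3.64 (2.97) at 313 mg/kg-d and 1.66 to 3.99 (3.17) at 427 mg/kg-d. All treated groups lay within or nearly within the wide control range. Gadd45g differed from controls by 0.10 log2 at the top dose (SE 0.49, limma FDR 0.905), and its sign depended on which animal was left out. With an SE this large the test could miss a sizeable change, so absence of a dose effect is not read from it. The lowest library held 16 Gadd45g reads and the highest of the controls 277. These reads carry no molecular identifiers, so counting error was not estimated from them. The SD within dose groups was 0.98, above that of 99.7% of the 1512 genes with a mean within 0.5 log2 of its own, whose median SD was 0.26. For Gadd45b, Gadd45a and Cdkn1a the same share was 96.2%, 94.8% and 94.6%, and for Mdm2 it was 58.0%.

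Cdkn1a, which encodes the CDK inhibitor p21, did not rise. It lies at chr17:29090976-29100727 on the plus strand, with the antisense transcript AC167363.2 across part of it. Its level was 1.91 to 3.25 (median 3.03) in controls, 1.88 to 2.88 (2.09) at 198 mg/kg-d, 1.95 to 3.14 (2.63) at 313 mg/kg-d and 1.66 to 3.33 (2.49) at 427 mg/kg-d. Every group overlapped the controls, and 1 animal at 427 mg/kg-d was above them all. Cdkn1a stood at -0.59 log2 (SE 0.27, limma FDR 0.254), -0.19 (SE 0.27, limma FDR 0.652) and -0.37 (SE 0.27, limma FDR 0.320) against controls at the 3 doses. These levels rested on 18 to 82 reads per library.

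Ccng1, which encodes cyclin G1, a p53-induced partner of the phosphatase PP2A that acts on Mdm2, was highest at the middle dose. It lies at chr11:40748552-40755311 on the minus strand. Its level was 6.08 to 7.15 (median 6.29) in controls, 6.47 to 6.72 (6.54) at 198 mg/kg-d, 6.83 to 7.38 (7.16) at 313 mg/kg-d and 6.61 to 7.11 (6.84) at 427 mg/kg-d. The control range was set by animal 5, at 7.15, while the next control was at 6.46, below every animal of the 2 upper doses. Animal 5 also had the highest summed stellate cell markers of the controls, 476 CPM against a control median of 227 CPM, and the part of these cells in its Ccng1 level was not tested. Ccng1 rose by 0.70 log2 (SE 0.13, limma FDR 0.000220) at 313 mg/kg-d and by 0.42 (SE 0.13, limma FDR 0.0144) at 427 mg/kg-d, and 0.84 and 0.56 without animal 5. The exact rank sum test with all animals called neither (adjusted p 0.0628 and 0.157). From 198 to 313 mg/kg-d Ccng1 rose by 0.55 log2 (SE 0.13, limma FDR 0.00515) with no overlap between the groups, which 4.55% of all genes showed. It was the only 1 of the 9 genes called in that step, beside 11.7% of all genes, of whose calls 68.8% were increases as deposited and 51.6% after median-ratio scaling. From 313 to 427 mg/kg-d the difference was -0.28 (limma FDR 0.255).

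Bax, the pore-forming BCL2 family member that opens the mitochondrial outer membrane, rose by less than 2-fold. It lies at chr7:45461697-45466898 on the minus strand, and overlaps Gm45808 on the same strand, with which 8.51% of its 50-base windows are shared. Its level was 4.04 to 4.70 (median 4.17) in controls, 4.43 to 5.08 (4.58) at 198 mg/kg-d, 4.55 to 4.95 (4.78) at 313 mg/kg-d and 4.52 to 5.15 (4.82) at 427 mg/kg-d. The groups overlapped, with 3 and 4 of 6 animals above all controls at the 2 upper doses. Bax differed from controls by 0.37 log2 (SE 0.13, limma FDR 0.126), 0.49 (SE 0.13, limma FDR 0.00556) and 0.54 (SE 0.13, limma FDR 0.00199) at the 3 doses. The exact rank sum test called the top dose (adjusted p 0.0371) and not 313 mg/kg-d (0.0628).

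Trp53inp1, a p53-induced stress protein with a part in autophagy and apoptosis, was the only 1 of the 9 genes called as a decrease. It lies at chr4:11156431-11174379 on the plus strand. Its level was 5.69 to 6.46 (median 6.10) in controls, 5.42 to 6.39 (5.87) at 198 mg/kg-d, 5.34 to 5.86 (5.63) at 313 mg/kg-d and 5.32 to 6.01 (5.64) at 427 mg/kg-d. It fell by 0.46 log2 (SE 0.15, limma FDR 0.0271) at 313 and by 0.43 log2 (SE 0.15, limma FDR 0.0344) at 427 mg/kg-d, with overlapping groups. Both calls were close to the threshold, and the exact rank sum test made neither (adjusted p 0.0906 and 0.113). The 313 mg/kg-d call was lost without any 1 of animals 3, 5, 7, 73, 74 and 77 (limma FDR 0.0503 to 0.0769), and the 427 mg/kg-d call without any 1 of animals 3, 5, 7, 97, 100 and 101 (limma FDR 0.0558 to 0.0945).

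Mdm2, the ubiquitin ligase that ends a p53 response, did not pass the test. It lies at chr10:117688875-117710758 on the minus strand. Its level was 3.11 to 4.05 (median 3.45) in controls, 3.17 to 3.83 (3.60) at 198 mg/kg-d, 3.43 to 3.96 (3.86) at 313 mg/kg-d and 3.71 to 4.01 (3.87) at 427 mg/kg-d. The 427 mg/kg-d group was narrow and lay inside the control range, whose upper end was control animals 3 and 4. Mdm2 differed from controls by 0.03, 0.24 and 0.32 log2 at the 3 doses (limma FDR 0.940, 0.228 and 0.0913). Without animal 3 or animal 4 the 427 mg/kg-d value was 0.42 (limma FDR 0.0208) or 0.39 (limma FDR 0.0454).

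Phlda3, a p53-induced inhibitor of Akt signalling, was near the lower limit of the assay. It lies at chr1:135766119-135769136 on the plus strand. Its level was 1.04 to 2.56 (median 1.53) in controls, 0.92 to 2.24 (1.85) at 198 mg/kg-d, 1.39 to 2.15 (2.03) at 313 mg/kg-d and 0.95 to 1.88 (1.47) at 427 mg/kg-d. All groups overlapped, and libraries held 7 to 45 of its reads. The log2 fold change was 0.09, 0.35 and -0.12 at the 3 doses (limma FDR 0.889, 0.297 and 0.748).

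**Figure D2:**
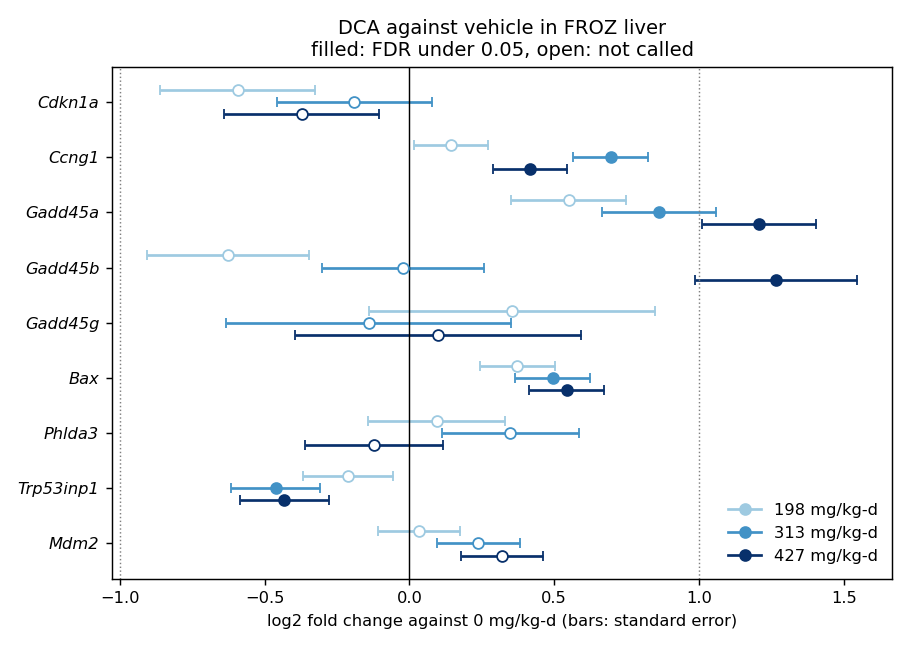
Log2 fold change of each gene against 0 mg/kg-d in FROZ liver (x axis, bars are standard errors, dotted lines mark a 2-fold change) at 198, 313 and 427 mg/kg-d, with filled points where the limma FDR is under 0.05. Gadd45a moves further from 0 at each dose, Ccng1 is furthest at 313 mg/kg-d, Gadd45b passes only at 427 mg/kg-d, and Trp53inp1 lies below 0.

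Whether the levels followed the dose was asked with Kruskal-Wallis and Jonckheere tests, each with 100000 permutations and adjustment over all genes, both of which had to pass. A trend was called in 3 of 9 genes, beside 24.3% of all genes, and all 3 were increases, beside 18.7%. For Gadd45a the adjusted permutation p of the 2 tests was 0.00184 and 0.000212, for Ccng1 0.00258 and 0.00913, and for Bax 0.0392 and 0.0101. Gadd45b passed the Kruskal-Wallis test (adjusted permutation p 0.00291) and missed the Jonckheere test (0.0566). The Ccng1 and Gadd45a trends were called without any 1 animal, whereas the Bax trend was lost without any 1 of 11 animals (numbers 4, 5, 6, 7, 8, 74, 78, 98, 99, 101 and 102), where its Kruskal-Wallis value reached 0.0877 at the highest. Gadd45b gained a trend without any 1 of animals 3, 8, 51, 52, 76 and 77, where its Jonckheere value fell to 0.0213 at the lowest. Under median-ratio scaling the count was again 3, with Trp53inp1 in the place of Bax, beside 20.4% of all genes.

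How the genes varied together between animals was described without a test. With dose means removed, Pearson's r over the 24 FROZ libraries ran from -0.38 to 0.58 in the 36 pairs, with a median of 0.14, all pairs sharing the same libraries. The highest was between Gadd45b and Bax and the lowest between Gadd45b and Phlda3. For the 5 genes called at 427 mg/kg-d, the gene with the most similar level over the 24 FROZ libraries, dose effects included, was Ammecr1l for Gadd45a (r 0.83), Cblb for Gadd45b (0.86), Wdr74 for Bax (0.86), Smagp for Ccng1 (0.83) and Slc45a3 for Trp53inp1 (0.78). Each was the highest of 5871 or 5872 genes averaging 10 CPM or more.

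The 5 lists of related genes place the 9 in their pathway. Of 35 other known p53 targets 26 were listed in FROZ. Of these 26, 7 rose and 0 fell at 427 mg/kg-d, beside 22.7% and 7.33% of all genes, with a median log2 fold change of 0.20 where all genes had 0.10, and under median-ratio scaling 5 rose and 1 fell. Those with a change above 2-fold were Ephx1, microsomal epoxide hydrolase, which is also induced by nuclear receptors, and Plk3, a stress-induced polo-like kinase. Ephx1 was at 8.03 ± 0.36 (SD, n = 6) in controls and 10.1 ± 0.23 at 427 mg/kg-d, a difference of 2.04 log2 (limma FDR 2.80e-09), and it also rose in FFPE liver by 2.24 log2 (limma FDR 3.29e-07). Plk3 went from 2.35 ± 0.71 to 3.40 ± 0.32, a difference of 1.05 log2 (limma FDR 0.00270). Those with a smaller rise on the log2(CPM + 1) scale were Aen (0.89 log2), Fas (0.87), Tob1 (0.57), Triap1 (0.40) and Tnfrsf10b (0.37), each at limma FDR under 0.05. Tnfrsf10b was near the lower limit of the assay, at 0.14 ± 0.14 (SD, n = 6) in controls and 0.51 ± 0.24 at 427 mg/kg-d. At such levels the scale understates the fold change. Median-ratio scaling ended the Tob1 and Triap1 calls.

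Of 18 listed regulators of p53, p53 itself included, 15 were measured in FROZ. Of these 15, 4 rose and 1 fell at 427 mg/kg-d, near the 22.7% and 7.33% of all genes, with a median log2 fold change of 0.12, and under median-ratio scaling 2 rose and 1 fell with a median of -0.04. Trp53 rose by 0.51 log2 (limma FDR 0.00359), from 4.16 ± 0.23 to 4.66 ± 0.23 (SD, n = 6), and Hipk2, a kinase that phosphorylates p53, by 0.42 log2 (limma FDR 0.0170), a call that median-ratio scaling ended (limma FDR 0.0711). Trp53 was already up by 0.57 log2 at 198 mg/kg-d (limma FDR 0.0261), where median-ratio scaling gave 0.49 (limma FDR 0.0566). The mRNA of p53 is not a measure of its activity, which is set mostly at the protein.

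Of 24 cell cycle genes 20 were measured in FROZ, namely other CDK inhibitors, cyclins and CDKs, together with the proliferation and E2F-RB genes Pcna, Mki67, Top2a, E2f1, Rb1 and Rbl1. Of these 20, 4 rose and 0 fell at 427 mg/kg-d, below the 22.7% and 7.33% of all genes, with a median log2 fold change of 0.06, and under median-ratio scaling 3 rose and 2 fell with a median of -0.05. Ccnd1, cyclin D1 of the G1 phase, rose by 1.23 log2 (limma FDR 0.000242) and Ccnb2, a mitotic cyclin, by 1.03 log2 (limma FDR 0.0142). At 313 mg/kg-d 8 of the 20 rose, beside 20.5% of all genes, and 5 of these rose under median-ratio scaling too. The 5 were all cyclins and are named after their values were seen. Ccnd1 rose there by 1.77 log2 (limma FDR 4.27e-06), Ccnb1 by 1.49 (0.0143), Ccnb2 by 1.19 (0.00611), Ccne1 by 1.16 (0.00228) and Ccna2 by 1.05 (0.0166). The other measured cyclins of the list, Ccnd2 (0.01 log2), Ccnd3 (0.17) and Ccne2 (-0.08), did not pass the test there. At 427 mg/kg-d Ccnb1 (1.12 log2, limma FDR 0.0572), Ccna2 (0.60, 0.169) and Ccne1 (-0.09, 0.834) did not pass it. At 313 mg/kg-d Cdkn1a was at -0.19 log2 (limma FDR 0.652).

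Of 14 other BCL2 family genes 13 were measured in FROZ. Of these, 2 rose at 427 mg/kg-d, beside 22.7% of all genes, and 2 fell, beside 7.33%, with a median log2 fold change of 0.04, and median-ratio scaling gave these calls too. The largest changes were in Bmf, a BH3-only protein released from the cytoskeleton, which fell by 0.98 log2 (limma FDR 0.00600), and in Bok, a Bax relative, which fell by 0.68 log2 (limma FDR 0.00495). Of 8 stress kinases downstream of GADD45, 7 were measured, of which 1 rose at 427 mg/kg-d, beside 22.7% of all genes, with a median of 0.09 that median-ratio scaling turned to -0.06. The 1 was Map2k4 at 0.30 log2 (limma FDR 0.0275), a call that median-ratio scaling ended (limma FDR 0.289), and the next largest, Mapk9, was at 0.27 log2 (limma FDR 0.126). In FFPE liver Ephx1 was the only called gene of the 5 lists at any dose.

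**Figure D3:**
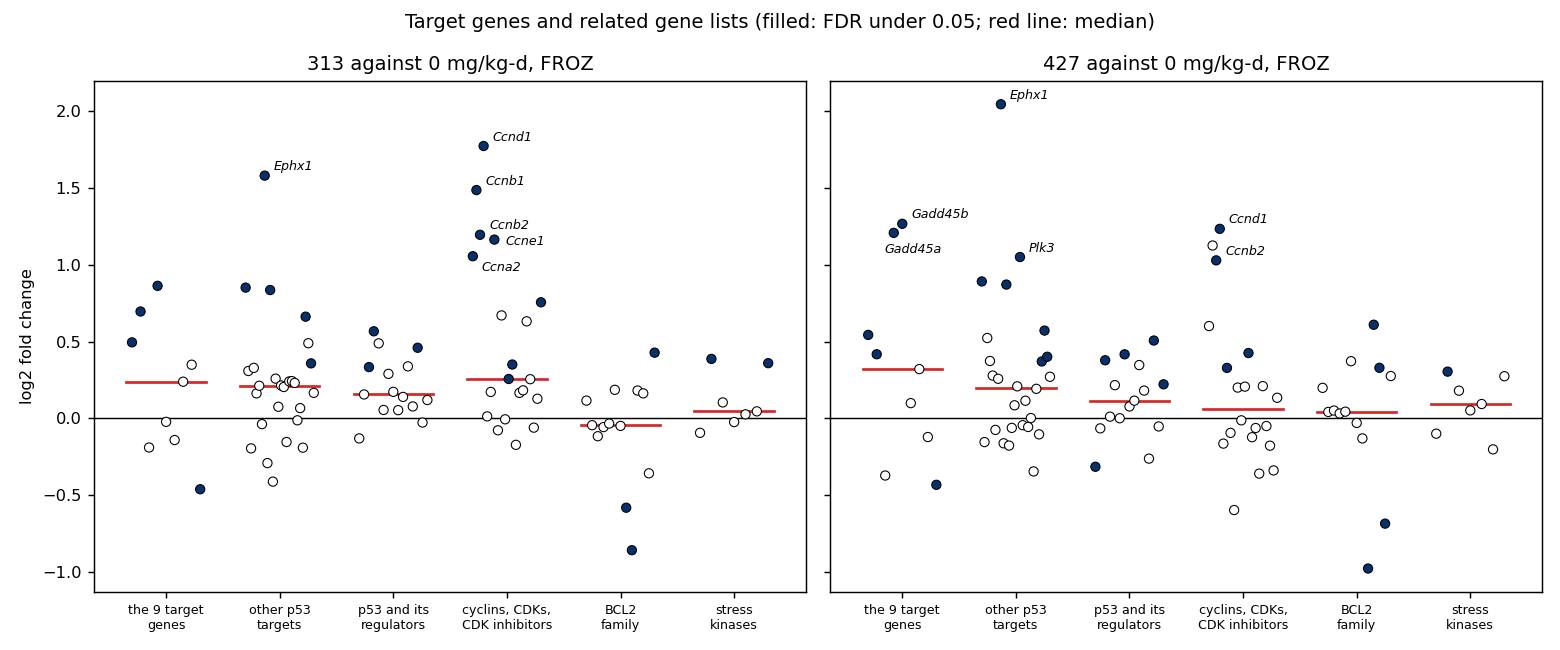
Log2 fold change at 313 and 427 against 0 mg/kg-d in FROZ liver (y axis) for the 9 genes and the measured genes of 5 related lists (x axis), one point a gene, filled where the limma FDR is under 0.05, with the median of each list in red. Called genes past a 2-fold change are labelled, among them 5 cyclins at 313 mg/kg-d and Ephx1 at both doses, and medians lie between -0.04 and 0.32.

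In FFPE liver the test called 0 of 7 genes at each dose, beside 0.0599%, 1.08% and 2.41% of all 6673 genes. Of the calls over all genes at 427 mg/kg-d, 64.0% were increases, and 52.1% after median-ratio scaling. With an unadjusted limma p under 0.05 there were 0, 2 and 2 of 7 at the 3 doses, beside 11.8%, 11.7% and 8.71% of all genes, and both times the 2 were Bax and Mdm2. No trend was called, beside 2.04% of all genes. Many FFPE libraries were listed at 0 for a gene that the same animal's FROZ library detected, and the limit of 3 reads was 0.499 to 1.64 CPM in the FFPE libraries.

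Bax had no value at 0 and the least scatter of the 7 genes in FFPE. Its level was 6.04 to 7.57 (median 7.01) in controls, 6.52 to 7.69 (7.32) at 198 mg/kg-d, 7.49 to 8.73 (7.74) at 313 mg/kg-d and 7.27 to 8.01 (7.41) at 427 mg/kg-d. Of the 6 animals at 313 mg/kg-d, 4 were above all controls. Bax was higher than in controls by 0.98 log2 there (SE 0.27, limma FDR 0.0790), and the difference passed without animal 3 (1.10, limma FDR 0.0460) or animal 78 (1.06, limma FDR 0.0424). At 427 mg/kg-d the difference was 0.57 (limma FDR 0.537).

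Mdm2 was listed at 0 in 2 controls and in 2 animals at 198 mg/kg-d. Its level reached 4.65 (median 2.08) in controls and 5.86 (3.50) at 198 mg/kg-d, and was 4.08 to 5.54 (4.40) at 313 mg/kg-d and 3.22 to 4.52 (4.40) at 427 mg/kg-d. No animal of the 2 upper doses was at 0, and each of these groups overlapped the controls. The log2 fold change was 2.55 (SE 1.00, limma FDR 0.277) at 313 mg/kg-d and 2.15 (SE 1.00, limma FDR 0.509) at 427 mg/kg-d. Array quality weights called the latter (2.32, limma FDR 0.0200).

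Gadd45a in FFPE ran from 0.29 to 4.65 (median 3.57) in controls, 0 to 5.38 (4.58) at 198 mg/kg-d, 2.86 to 5.15 (4.26) at 313 mg/kg-d and 3.28 to 5.37 (4.70) at 427 mg/kg-d. Its log2 fold change at 427 mg/kg-d was 1.35 (SE 0.88, limma FDR 0.827), where 1 control, animal 3, held 1 read, and without that animal it was 0.77. Trp53inp1 was at 4.70 to 7.00 (median 6.48) in controls and 3.76 to 6.60 (6.06) at 427 mg/kg-d, a difference of -0.44 (SE 0.74, limma FDR 1.00). Ccng1 was listed at 0 in 1, 0, 1 and 2 animals of the 4 groups in order of dose, and its median was 3.87, 4.79, 2.27 and 3.26. Cdkn1a had no value at 0 in controls (3.97 to 5.91, median 4.74) and was listed at 0 in 2 animals at 313 and 1 at 427 mg/kg-d, with a difference of -1.63 (SE 1.03, limma FDR 0.822) at the top dose.

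**Figure D4:**
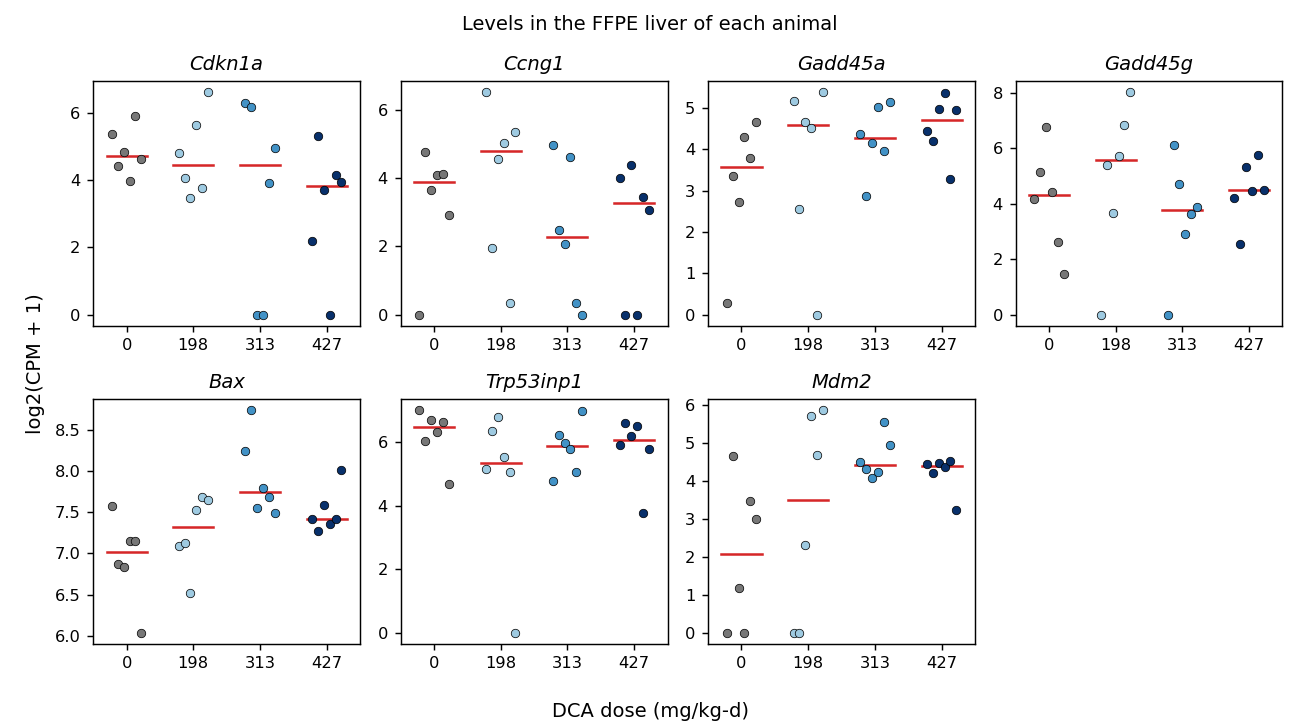
Levels of 7 genes as log2(CPM + 1) in each FFPE library (points) against DCA dose in mg/kg-d, with the median of the 6 animals of a dose as a red line. Points at 0 are libraries in which the gene was listed at 0, present in every gene but Bax, and the Bax points lie between 6.04 and 8.73.

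Whether the response differed between preservations was asked within animals, by subtracting each FROZ value from the FFPE value of the same mouse. Fixation, the liver lobes and RNA isolation against lysis all differed between the pieces and cannot be told apart here. The test called 0 of 7 genes at each dose, beside 0.0303%, 0.0% and 0.0303% of the 6591 genes in both tables, and 0, 1 and 0 of 7 had an unadjusted limma p under 0.05, beside 11.4%, 7.39% and 2.22%. The 1 was Mdm2 at 313 mg/kg-d, where the FFPE response was 2.31 log2 larger (95% half-width 1.95, limma FDR 0.640). For Gadd45a at 427 mg/kg-d the difference in response was 0.15 (half-width 1.64) and for Bax 0.03 (half-width 0.56), and the interval for Gadd45a held both no response in FFPE and a response larger than in FROZ.

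Gadd45g levels were also set side by side between the pieces of each animal, a comparison chosen after the values had been seen. Its highest FROZ values, in animal 54 (5.00) and animal 5 (4.96), were also high in FFPE, at 8.02, the highest of all, and at 6.75, which only animal 53 (6.84) otherwise exceeded. With dose means removed, Pearson's r between FROZ and FFPE over the 24 animals was 0.59 (permutation p 0.00571, adjusted over 6591 genes 0.206) and Spearman's rho 0.63 (permutation p 0.00246, adjusted 0.126). Without animals 5 and 54, the farthest from the median in FROZ, r was 0.44. The value was above that of 97.5% of the 6591 genes, whose median r was 0.09, but neither measure passed after adjustment over all genes, as 0.607% of genes did for Pearson's r. For the other 6 genes r was 0.08 to 0.40. In FFPE Gadd45g was 1.48 to 6.75 (median 4.30) in controls and 2.54 to 5.74 (4.48) at 427 mg/kg-d, and it was listed at 0 in animals 49 and 73, whose libraries were at 1.83 and 3.09 M reads.

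**Figure D5:**
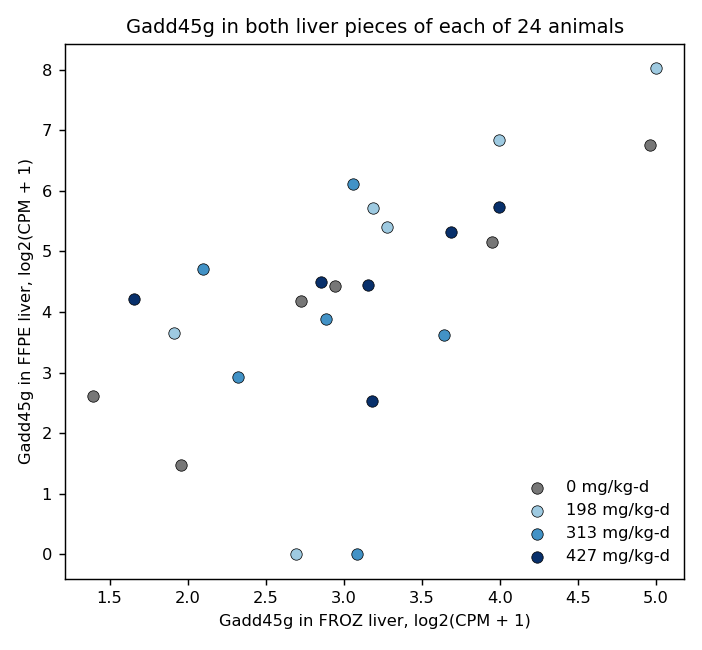
Gadd45g as log2(CPM + 1) in the FROZ (x axis) and FFPE (y axis) piece of each of 24 animals, coloured by DCA dose. With dose means removed r is 0.59 (adjusted permutation p 0.206), and both libraries listed at 0 in FFPE lie in the middle of the FROZ range.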

How the data were processed

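TempO-Seq was run on paired FROZ and FFPE liver of 24 mice. Per the labels and the study's methods, the authors aligned single-end reads to mm10 with STAR 2.6, quantified genes in Partek Flow, removed genes with low expression, normalised to CPM and deposited log2(CPM + 1) values, 1 table per preservation. FFPE depth (1.83 to 6.01 M reads) was recovered from the steps between low values, of which 82.8 to 95.2% came out whole within 0.05 reads, against 96.3 to 97.1% in FROZ. Because the deposited unit is log2 and not counts, no count model was used.

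Each table was fitted with limma 3.58.1 (R 4.3.3, mean-variance trend, 4 dose groups) over every listed gene, with Benjamini-Hochberg adjustment over the table and a call at FDR under 0.05. Fold changes are on the log2(CPM + 1) scale, which understates those of low genes. The fit and the trend tests were checked on simulated normal values, for the fit with changes set only in genes of higher level. That check does not cover genes near the lower limit or values listed at 0. The response difference was fitted on each animal's FFPE minus FROZ difference: the labels give both pieces of 1 animal the same number, and over 4815 genes the median correlation was 0.128 within an animal against -0.0232 between animals of a dose, though only 14 of 24 exceeded 0.1. Replicates are separate animals. Alternatives were the offset, a mean CPM minimum of 10, median-ratio scaling, no variance trend, array quality weights, 2 groups only, an exact rank sum test and leaving out each animal. Named genes were the 9 members, list genes past a 2-fold change at 427 mg/kg-d (or the 2 largest) and the most similar gene of each called member. Beyond that rule, other genes were named after their values were seen. These had a p53 element in their promoter, were p53 targets called at 427 mg/kg-d or were cyclins called at 313 mg/kg-d. Members and lists were chosen with earlier results of these data known. Probe sequences were not used here.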

Additional observations from a re-analysis of the deposited data

Results flagged for a closer look

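In 64 groups of 6 libraries (9 genes in FROZ and 7 in FFPE at 4 doses), 6 held an animal set apart from the others by Dixon's test, critical value for 6 samples,, where chance flags about 1 in 20. In FROZ they were Ccng1 in control animal 5 (7.15, next 6.46), Cdkn1a in animal 50 at 198 mg/kg-d (2.88, next 2.16) and Phlda3 in animal 74 at 313 mg/kg-d (1.39, next 1.95). In FFPE they were Mdm2 in animal 102 at 427 mg/kg-d (3.22, next 4.21), Trp53inp1 in animal 54 at 198 mg/kg-d (listed at 0.0, next 5.08) and Trp53inp1 in animal 101 at 427 mg/kg-d (3.76, next 5.79). No cause was tested.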

How the results depend on the processing

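Depth and scaling both bear on the values: median-ratio scaling ended the calls named in the text, FFPE libraries held fewer reads than FROZ libraries, 1 read was worth 0.166 to 0.546 CPM there, and a gene listed at 0 in a few FFPE libraries moved its group mean widely. Gadd45a kept its calls at 313 and 427 mg/kg-d in FROZ under every alternative run, and Gadd45b its call at 427 mg/kg-d wherever it was tested. The exact rank sum test called 1 of 9 genes at 313 mg/kg-d in FROZ (Gadd45a), beside 2256 of all 11275 genes, 3 at 427 mg/kg-d (Gadd45a, Gadd45b, Bax), beside 2633 (23.4%), and 0 in the step from 313 to 427 mg/kg-d, where it called 0 of all genes. It thus ended the limma calls of Ccng1 and Trp53inp1 at both doses and of Bax at 313 mg/kg-d. A mean CPM minimum of 10 left Gadd45b untested, so the count in that step was 0. Array quality weights called 1 of 7 genes in FFPE at 427 mg/kg-d (Mdm2) and called Mdm2 in FROZ at that dose (0.37, limma FDR 0.0347). Of the 40 log2 fold changes given in the text, 3 changed sign under a setting other than leaving out an animal, namely Mdm2 at 198 mg/kg-d (-0.046) and Gadd45g at 427 mg/kg-d (-0.031) under median-ratio scaling, and Gadd45b at 313 mg/kg-d (0.029) under array quality weights, all in FROZ. The cause of these changes was not tested.

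Leaving out 1 animal gave 3 to 4 called genes at 313 mg/kg-d and 4 to 6 at 427 mg/kg-d in FROZ, and 0 to 1 at 313 mg/kg-d in FFPE. It gave log2 fold changes in FROZ of -0.052 to 0.14 for Mdm2 and -0.016 to 0.29 for Phlda3 at 198 mg/kg-d, -0.18 to 0.18 for Gadd45b and -0.46 to 0.25 for Gadd45g at 313 mg/kg-d, and -0.22 to 0.49 for Gadd45g and -0.23 to 0.072 for Phlda3 at 427 mg/kg-d. For the difference in response between preservations at 427 mg/kg-d it gave -0.11 to 0.11 for Bax and -0.52 to 0.43 for Gadd45a. Over all 101 values of the 9 genes, those not given in the text included, 14 of 683 alternatives and 69 of 2424 fits without an animal turned the sign, each of a value with a limma FDR of at least 0.748. Without the replicate block, that is with both tables in one fit that ignores the paired animals, 0 of 7 genes differed between preservations at each dose, as with it, so the pairing changed no call.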
